A study of Mus musculus with 24 samples.

Results

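The transcription factor p53 and 8 genes that it is known to activate were followed through 24 arrays of mouse embryonic fibroblasts. The 9 genes are Trp53, which encodes p53, and Cdkn1a, Mdm2, Ccng1, Aen, Zmat3, Phlda3, Trp53inp1 and Gadd45a. They were found through the RefSeq accession that the scanner files give for each probe, and each gene was read from the probe with the highest mean log2 signal over all arrays. They are 9 of 20134 genes with a named probe, and all 9 were among the 14451 genes tested, that is, genes with a probe clearly above background throughout at least 1 group. Each of the 9 probes was well above background on all 24 arrays, so no member was lost to that filter.

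The cells were untreated or stressed by tunicamycin, which blocks N-glycosylation and so lets unfolded proteins gather in the endoplasmic reticulum (ER). Wild-type cells (4 untreated and 4 treated arrays) were set beside PERKKO cells, here Perk-null, which lack the ER kinase PERK that phosphorylates eIF2α, and beside ATF4KO cells, here Atf4-null, which lack the transcription factor whose translation rises once eIF2α is phosphorylated. In eIF2a A/A cells the phosphorylated serine of eIF2α is replaced by alanine. Each of these 3 mutants has 2 untreated and 2 treated arrays. Treated wild-type and mutant cells received 2 µg per mL tunicamycin, and their labels give a time of 12 h, while the common protocol allows a longer time as well. Fv2E-PERK cells carry a transgene for a form of the PERK kinase that is activated by a compound which dimerizes it, and were untreated (2 arrays) or given AP for 12 h (2 arrays), a compound for which the labels give neither a fuller name nor a dose. The file of the second untreated Perk-null array is named for a longer mock treatment, unlike its label. The promoter of the transgene, the age of the embryos, the number of clones and the way the lines were immortalized are not given in the sources used here. Nor do the labels say that replicates are separate cultures, so p-values measure the spread between these arrays, which may be technical.

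In unstressed cells p53 is made and destroyed continuously, because MDM2, itself a p53 target, marks it for degradation. Stress that blocks this loop lets p53 accumulate and activate genes of cell cycle arrest, among them Cdkn1a, which encodes the kinase inhibitor p21, and genes of cell death and repair. p53 activity is thus set mostly at the level of the protein, which arrays do not see. Several of these targets are also under other factors: Gadd45a, for example, is known to be raised in ER stress by the ATF4 branch of the integrated stress response.

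RefSeq (GRCm38.p6) gave a promoter window, from 250 bases before to 50 bases after an annotated start, for 7 of the 9 genes, in 9 windows. Zmat3 and Trp53inp1 had no entry. A p53 half-site, the 10-base motif of which p53 usually binds 2 copies, was searched for on either strand by its consensus letters. It was present in 6 of the 7 genes, against 9.55% of 27025 genes. By window it was in 7 of 9, against 8.36% of 32851 mouse promoter windows of the same length. The members were picked as known p53 targets, so a high share is no independent result. A pair of half-sites at most 13 bases apart was present only in the upstream window of Cdkn1a, and in 0.0731% of all windows. These letters say nothing about whether p53 was bound. The letters CCAAT and GGGCGG were each in 5 of the 7 genes as well. By window they were in 6 and 5 of 9, against 37.4% and 35.7% of all windows. For each of the 6 genes with a half-site, 1 such window is shown from 5′ to 3′ on the strand of the gene, with the half-sites in capitals.
Cdkn1a, chr17:29090729-29091028, plus strand: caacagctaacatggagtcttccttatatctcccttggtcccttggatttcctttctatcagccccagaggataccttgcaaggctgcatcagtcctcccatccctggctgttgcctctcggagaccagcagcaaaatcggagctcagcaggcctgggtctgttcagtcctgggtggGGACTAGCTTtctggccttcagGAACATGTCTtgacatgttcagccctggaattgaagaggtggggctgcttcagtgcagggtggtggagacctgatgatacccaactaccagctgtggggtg
Mdm2, chr10:117710709-117711008, minus strand: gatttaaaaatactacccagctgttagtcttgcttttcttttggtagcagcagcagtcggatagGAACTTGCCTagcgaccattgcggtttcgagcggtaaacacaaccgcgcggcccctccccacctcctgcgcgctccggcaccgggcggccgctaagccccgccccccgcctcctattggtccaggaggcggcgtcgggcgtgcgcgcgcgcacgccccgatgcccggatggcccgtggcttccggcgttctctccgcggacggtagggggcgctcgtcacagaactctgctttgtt
Trp53, chr11:69580109-69580408, plus strand: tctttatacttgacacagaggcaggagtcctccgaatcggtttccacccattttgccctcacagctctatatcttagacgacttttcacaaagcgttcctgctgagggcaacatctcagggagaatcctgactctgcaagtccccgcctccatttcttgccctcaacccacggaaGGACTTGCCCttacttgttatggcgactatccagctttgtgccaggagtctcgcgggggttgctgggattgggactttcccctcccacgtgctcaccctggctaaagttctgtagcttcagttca
Ccng1, chr11:40755237-40755536, minus strand: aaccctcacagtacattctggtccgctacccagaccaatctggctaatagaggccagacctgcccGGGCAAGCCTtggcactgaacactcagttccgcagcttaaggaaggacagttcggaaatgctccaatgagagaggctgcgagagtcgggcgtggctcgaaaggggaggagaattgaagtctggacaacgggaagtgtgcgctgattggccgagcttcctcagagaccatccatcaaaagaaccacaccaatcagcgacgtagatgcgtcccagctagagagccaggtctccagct
Aen, chr7:78895677-78895976, plus strand: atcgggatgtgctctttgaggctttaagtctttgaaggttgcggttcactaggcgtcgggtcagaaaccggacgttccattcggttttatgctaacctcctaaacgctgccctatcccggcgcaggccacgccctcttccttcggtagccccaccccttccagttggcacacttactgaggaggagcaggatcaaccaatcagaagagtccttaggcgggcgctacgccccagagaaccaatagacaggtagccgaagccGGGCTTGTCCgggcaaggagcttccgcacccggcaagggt
Gadd45a, chr6:67037358-67037657, minus strand: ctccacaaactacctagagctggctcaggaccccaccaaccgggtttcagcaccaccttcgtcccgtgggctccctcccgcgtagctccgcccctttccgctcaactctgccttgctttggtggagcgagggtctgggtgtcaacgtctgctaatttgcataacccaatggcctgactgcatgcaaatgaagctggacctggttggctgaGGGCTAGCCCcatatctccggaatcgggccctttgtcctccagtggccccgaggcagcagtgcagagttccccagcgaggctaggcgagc

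The half-sites of Cdkn1a began 73 and 51 bases before the start, with 12 bases between them. That of Trp53 itself began 75 bases before its start and that of Gadd45a 40 bases before. In Mdm2 and Ccng1 the motif lay farther out, 186 and 185 bases before the start. The single Aen half-site lay 11 bases after the start in the window shown and 121 bases before a second annotated start. The window of Phlda3 and a second, downstream window of Cdkn1a held none. The letters TGATGNAA, a common form of the site that ATF4 binds with its partners, and TGACGTCA, the cyclic AMP response element, were in none of the 9 windows, on either strand. They occurred in 3.97% and 1.79% of all windows.

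The arrays differed in ways that touch every comparison. Their headers give scan times in 8 scan sessions. Arrays scanned in the same calendar year were taken here as a run, which gave 3 scan runs. In run 1 the Atf4-null cells were scanned with wild-type replicates 1 and 2, untreated on 1 slide and treated on the other, so slide and treatment cannot be told apart there. In run 2 the Perk-null cells were scanned with wild-type replicates 3 and 4. Run 3 was of Fv2E-PERK and eIF2a A/A cells, each on a slide of its own. File names place the wild-type cells of run 1 with the Atf4-null line and those of run 2 with the Perk-null line, although the labels give 1 wild type. The 75th percentile of signal ran from 111 to 418 intensity units, and the share of probes well above background from 45.1% to 58.2%. The dimmest array, at 111, was treated Atf4-null replicate 1, with 45.5% of probes well above background. The next, treated wild-type replicate 1, was at 208. Every Atf4-null response rests in part on that dimmest array, 1 of 2 treated ones. Atf4 read between -4.27 and 2.79 on the 4 Atf4-null arrays and between 6.56 and 9.14 elsewhere. Eif2ak3, the gene of PERK, was still well above background on all Perk-null arrays, where it read -0.47 to 0.28. Whether that probe lies within the deleted part of the gene is not known, so it is no check of the label. All levels are log2 of the signal relative to the 75th percentile of its array, a scale on which 1 unit is a doubling and on which different probes cannot be ranked against each other. Changes are log2 differences ± SE from a limma model of all arrays, and "called" means an adjusted p below 0.05. The arrays of a set did not vary equally. The median standard deviation of a gene was 0.209 to 0.313 in the sets of run 1. It was 0.072 to 0.15 in run 2 and 0.057 to 0.09 in run 3. With 1 pooled spread, SE and p-values are thus likely too small for Atf4-null cells and too large for run 3.

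**Figure D1:**
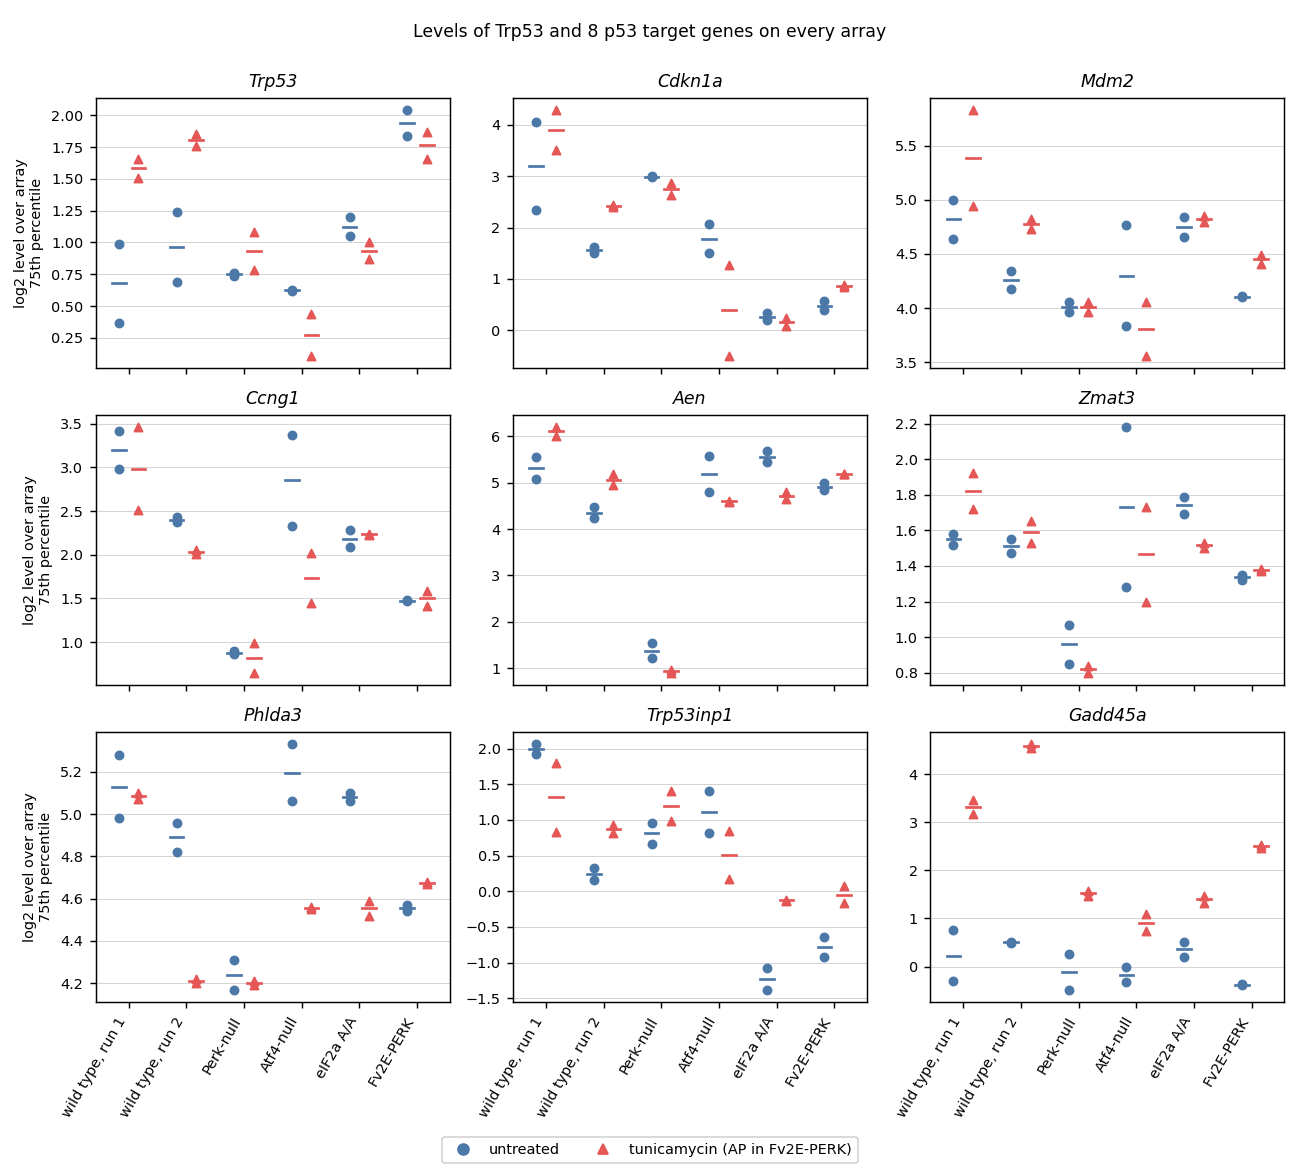
Levels of the 9 genes on every array, as log2 of the signal relative to the 75th percentile of its array, with 1 panel and 1 vertical scale per gene. Circles are untreated arrays, triangles are arrays with tunicamycin (AP in Fv2E-PERK cells), and bars are means of 2 arrays; Gadd45a triangles lie above its circles in every line, while Aen is far lower in Perk-null cells than elsewhere.

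With tunicamycin in wild-type cells, Trp53 mRNA rose, and so did Gadd45a, Aen and Mdm2, while Phlda3 fell and the other 4 members were not called. The 5 of 9 members called compare with 37.5% of all genes tested. The median change of the members was 0.54, against 0.07 over all genes. Trp53 read 0.99, 0.37, 1.24 and 0.69 untreated and 1.66, 1.51, 1.85 and 1.76 treated, in the order of replicates 1 to 4. Every treated array lay above every untreated one. The change was 0.87 ± 0.14, or 1.83-fold (adjusted p = 0.000224, n = 4 per group). It was 0.90 ± 0.28 within run 1, where it did not pass on its own, and 0.84 ± 0.20 within run 2.

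Gadd45a, which encodes a stress protein that slows the cell cycle and binds p21, moved most. It read -0.31, 0.76, 0.49 and 0.52 untreated and 3.46, 3.17, 4.54 and 4.62 treated. The groups were far apart, and the change was 3.58 ± 0.23 (adjusted p = 1.83e-08). The rise was 3.09 ± 0.39 within run 1 and 4.08 ± 0.23 within run 2.

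Aen, which encodes a nuclease that acts in p53-driven apoptosis, read 5.56, 5.08, 4.23 and 4.47 untreated and 6.01, 6.19, 4.95 and 5.18 treated. The ranges of the groups overlapped because both run 2 groups were lower, but within each run both treated arrays lay above both untreated ones. The change was 0.75 ± 0.15 (adjusted p = 0.00116), 0.78 ± 0.33 within run 1, not called there, and 0.71 ± 0.16 within run 2. Mdm2, the ubiquitin ligase of p53, read 5.00, 4.64, 4.18 and 4.34 untreated and 5.83, 4.94, 4.73 and 4.82 treated, with overlap between the groups in run 1. Its change of 0.54 ± 0.20 passed narrowly (adjusted p = 0.0426). The call was lost without untreated replicate 2, 3 or 4 or treated replicate 1, 3 or 4, where the change ran from 0.36 to 0.58, and when the replicate number or the slide was a block, at the same 0.54. It was also lost with quantile normalization (0.40), with normexp background (0.49) and with no filter on dim probes.

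Phlda3, which encodes an inhibitor of AKT signalling, read 5.28, 4.98, 4.96 and 4.82 untreated and 5.07, 5.10, 4.20 and 4.22 treated. Only the run 2 arrays separated: the change was -0.68 ± 0.10 within run 2 and -0.05 ± 0.23 within run 1, and -0.36 ± 0.12 over both (adjusted p = 0.0226). With the replicate number as a block the same change was not called, nor was it without untreated replicate 3 or 4 or treated replicate 3 or 4, at -0.27 to -0.33.

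Cdkn1a, the best known arrest gene of p53, was not called in wild-type cells. It read 4.05, 2.34, 1.63 and 1.50 untreated and 4.28, 3.50, 2.43 and 2.40 treated. Untreated replicate 1 was as high as the treated arrays, and the change was 0.78 ± 0.35 (adjusted p = 0.0928). Without that array it was 1.13 and was called. Within run 2 it was 0.85 ± 0.12, also called, and within run 1 it was 0.70 ± 0.75.

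Trp53inp1, which encodes a protein that helps p53 induce death and takes part in autophagy, went opposite ways in the runs on its brighter probe. It read 2.06 and 1.92 untreated and 1.80 and 0.83 treated in run 1, and 0.16 and 0.33 untreated and 0.93 and 0.82 treated in run 2. The combined change of -0.02 ± 0.26 therefore stands for -0.67 ± 0.42 in run 1 and 0.63 ± 0.18 in run 2, of which the latter passed the test. A second, dimmer probe did not fall in run 1. It read -1.48 and -2.35 untreated and -1.31 and -1.48 treated there. In run 2 that probe read -3.39 and -3.33 untreated and -2.48 and -2.69 treated. Ccng1, the gene of cyclin G1, changed by -0.29 ± 0.22, and Zmat3, which encodes an RNA-binding protein that takes part in p53 signalling, by 0.18 ± 0.16. Neither was called (adjusted p = 0.321 and 0.402).

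Fibroblast markers moved in the same comparison. Of 16 such genes 10 were called lower and 1 higher, 68.8% against 37.5% of all genes. Their summed linear level in run 1 was 696 to 800 times the 75th percentile on untreated and 484 to 562 on treated arrays. In run 2 it was 1049 to 1069 untreated and 810 to 818 treated. Their part in the changes of the members was not tested. In bulk RNA, fewer cells of a type and less RNA per cell cannot be told apart.

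**Figure D2:**
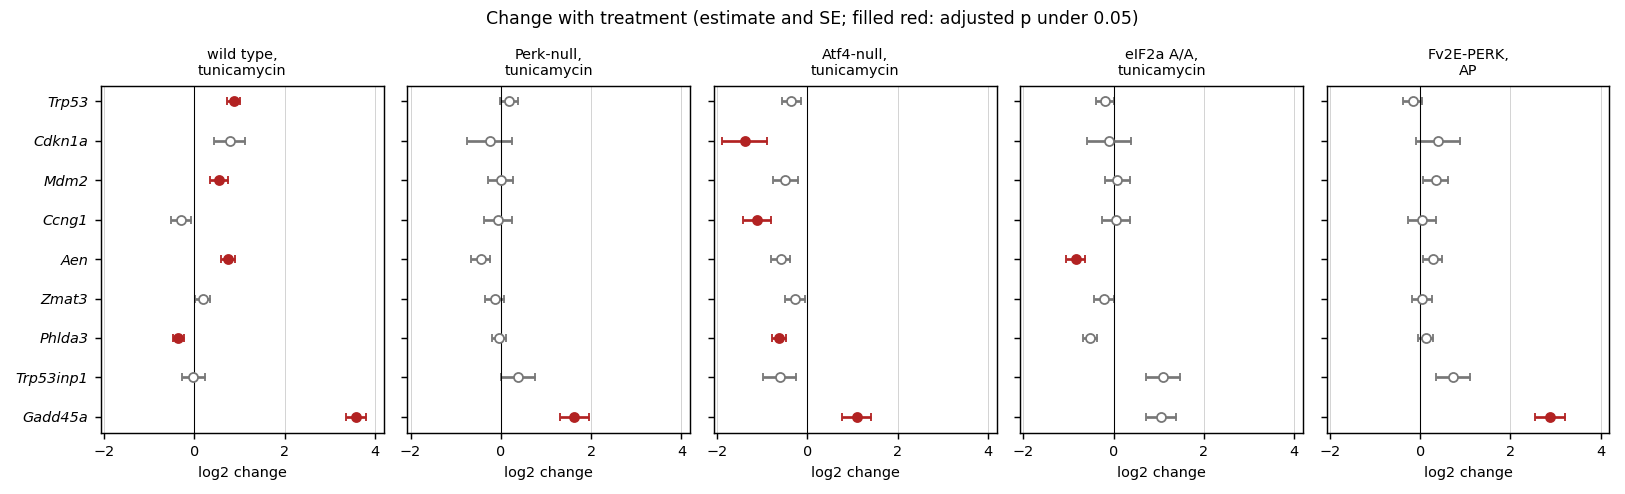
Change of each gene with treatment in the 5 lines, on a log2 scale, as the estimate from the model of all arrays with its standard error. Filled red points are called at an adjusted p under 0.05: 5 genes in wild-type cells, 1 each in Perk-null, eIF2a A/A and Fv2E-PERK cells and 4 in Atf4-null cells.

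In Perk-null cells 1 of the 9 members was called with tunicamycin, against 2.28% of all genes, and that was Gadd45a. It read -0.48 and 0.26 untreated and 1.47 and 1.57 treated, without overlap. The rise of 1.63 ± 0.33 (adjusted p = 0.0153, n = 2 per group) was not called without untreated replicate 1 (1.26), treated replicate 1 (1.68) or treated replicate 2 (1.58). It was also lost, at the same 1.63, when Perk-null arrays of the same scan session were paired, which crosses the replicate numbers. Trp53 read 0.74 and 0.76 untreated and 0.78 and 1.08 treated, a change of 0.18 ± 0.20. Mdm2 read 3.96 and 4.06 in both groups. Aen changed by -0.45 ± 0.21, Cdkn1a by -0.25 ± 0.49 and Trp53inp1 by 0.38 ± 0.37, and Ccng1, Zmat3 and Phlda3 by -0.06 ± 0.31, -0.14 ± 0.22 and -0.04 ± 0.16. The members' median was -0.04, against 0.02 over all genes.

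In eIF2a A/A cells, where eIF2α cannot be phosphorylated, Aen fell, and it was the only member called (1 of 9, against 4.90% of all genes). It read 5.44 and 5.68 untreated and 4.80 and 4.64 treated, and both treated arrays were lower. The change was -0.84 ± 0.21 (adjusted p = 0.0342), and the call was lost without any 1 of the 4 arrays, at -0.72 to -0.96, when the replicate number was a block, with normexp background (-0.87) and with no filter on dim probes. Gadd45a read 0.20 and 0.51 untreated and 1.46 and 1.33 treated, so the groups did not overlap, yet its change of 1.04 ± 0.33 was not called (adjusted p = 0.0934). Trp53inp1 read -1.07 and -1.38 untreated and -0.12 and -0.14 treated, again without overlap, with a change of 1.09 ± 0.37 (adjusted p = 0.121). Phlda3 read 5.06 and 5.10 untreated and 4.59 and 4.52 treated, a change of -0.53 ± 0.16 (adjusted p = 0.0884). A fit with 12 group means in place of the run term called these 3 genes as well, at the same changes. Trp53 read 1.20 and 1.05 untreated and 0.87 and 1.00 treated, a change of -0.20 ± 0.20, and the changes of Cdkn1a, Mdm2, Ccng1 and Zmat3 lay between -0.22 and 0.08.

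In Atf4-null cells Cdkn1a, Ccng1 and Phlda3 fell with tunicamycin and Gadd45a rose, 4 of 9 members against 29.0% of all genes. The median change of the members was -0.59, against -0.04 over all genes. Cdkn1a read 1.50 and 2.06 untreated and 1.27 and -0.49 treated. Both treated arrays were below both untreated ones, but they lay far apart from each other, and the change was -1.39 ± 0.49 (adjusted p = 0.0448). Without treated replicate 2 it was -0.51, and without untreated replicate 2 it was -1.11, neither of them called. The call was also lost with quantile normalization (-1.37), with slide as a random block (-1.36) and with no filter on dim probes.

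Ccng1 read 2.33 and 3.37 untreated and 2.02 and 1.45 treated, a fall with a change of -1.12 ± 0.31 (adjusted p = 0.0142). It was not called without treated replicate 2 (-0.84) or untreated replicate 2 (-0.60). Phlda3 read 5.06 and 5.33 untreated and 4.56 and 4.55 treated, a change of -0.63 ± 0.16 (adjusted p = 0.00994), lost without untreated replicate 2 (-0.50) and with quantile normalization (-0.32). Gadd45a, at -0.33 and 0.00 untreated and 1.1 and 0.73 treated, rose by 1.09 ± 0.33 (adjusted p = 0.0226), a call lost without treated replicate 1 (0.90), untreated replicate 1 (0.92) or untreated replicate 2 (1.25). All 4 were not called when run 1 was fitted alone, with the same changes.

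Trp53 in these cells read 0.62 and 0.63 untreated and 0.44 and 0.11 treated. Both treated arrays were lower, the opposite side to wild type, although the change of -0.35 ± 0.20 was not called (adjusted p = 0.216). Aen read 4.80 and 5.57 untreated and 4.60 and 4.59 treated, a change of -0.59 ± 0.21 that just missed the threshold (adjusted p = 0.0513) and passed without untreated replicate 1, at -0.97. Mdm2, Trp53inp1 and Zmat3 changed by -0.49 ± 0.28, -0.61 ± 0.37 and -0.27 ± 0.22. Without untreated replicate 1, Mdm2 (-0.96) and Zmat3 (-0.72) were called too.

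When the PERK kinase was switched on by AP in Fv2E-PERK cells, Gadd45a rose and no other member was called (1 of 9, against 4.08% of all genes). It read -0.38 and -0.37 untreated and 2.47 and 2.52 treated, a change of 2.87 ± 0.33, or 7.3-fold (adjusted p = 0.000146). It was called under all 15 alternatives that could be run. Trp53 itself read 2.04 and 1.84 untreated and 1.87 and 1.66 treated, overlapping, with a change of -0.17 ± 0.20. Trp53inp1, at -0.64 and -0.92 untreated and -0.17 and 0.07 treated, changed by 0.73 ± 0.37. Cdkn1a read 0.57 and 0.39 untreated and 0.89 and 0.85 treated, a change of 0.39 ± 0.49. Mdm2 read 4.11 and 4.10 untreated and 4.49 and 4.41 treated, a change of 0.34 ± 0.28. The treated arrays of these 3 genes lay above the untreated ones. A fit on these arrays alone, whose spread is smaller, called the 3 as well. That fit called 4153 of all 14451 genes, against 589 in the main fit. For Trp53inp1 the mean of all probes gave a change of -0.11. Aen, Phlda3, Zmat3 and Ccng1 changed by 0.28 ± 0.21, 0.12 ± 0.16, 0.04 ± 0.22 and 0.03 ± 0.31.

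The mutant responses were then set against the wild-type response over both of its runs, which all 3 differences share. Run 3 holds no wild type, so the eIF2a A/A difference spans runs. Line, run and array design version cannot be told apart in it. In each of the 3 differences Gadd45a and Aen were called, both with a smaller or reversed response in the mutant. For Gadd45a the difference was -1.95 ± 0.40 in Perk-null, -2.50 ± 0.40 in Atf4-null and -2.54 ± 0.40 in eIF2a A/A cells (adjusted p = 0.00536, 0.000472 and 0.000594). For Aen, which was called higher in wild-type cells and not in the other lines, it was -1.20 ± 0.26, -1.33 ± 0.26 and -1.59 ± 0.26 (adjusted p = 0.00751, 0.00182 and 0.000768). With quantile normalization the Atf4-null difference for Aen was -0.86, still called. The Perk-null difference for Aen was not called without untreated Perk-null replicate 1, at -1.04.

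The Trp53 response differed from that of wild type by -1.22 ± 0.25 in Atf4-null and -1.07 ± 0.25 in eIF2a A/A cells, both called (adjusted p = 0.00235 and 0.00785). In Perk-null cells the difference was -0.69 ± 0.25 and was not (adjusted p = 0.082). It was called, at -0.81, without wild-type untreated replicate 1 and likewise without replicate 3. Cdkn1a differed in Atf4-null cells, by -2.17 ± 0.60 (adjusted p = 0.0139), a call lost without treated (-1.28) or untreated (-1.89) Atf4-null replicate 2. A second, dimmer probe of Cdkn1a gave -1.03 ± 0.62 for this difference, not called (adjusted p = 0.222). On the brighter probe the Cdkn1a differences in Perk-null and eIF2a A/A cells were -1.02 ± 0.60 and -0.88 ± 0.60. The Mdm2 difference of -1.03 ± 0.34 in Atf4-null cells (adjusted p = 0.0335) was lost with quantile normalization (-0.62), with no filter on dim probes, when the replicate number was a block and without Atf4-null untreated (-0.56) or treated (-0.78) replicate 2. Leaving out wild-type untreated replicate 2 or 3 or treated replicate 1 or 4 lost it too, at -0.85 to -1.02.

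In all, 2 of 9 members were called for Perk-null cells against 13.2% of all genes, 5 for Atf4-null against 30.5%, and 3 for eIF2a A/A against 18.2%. The members' medians were -0.54, -1.03 and -0.46, and those of all genes -0.05, -0.13 and -0.06. Phlda3, Ccng1, Zmat3 and Trp53inp1 were called in none of the 3 differences. Within run 1 alone the Atf4-null differences had similar sizes, -2.0 ± 0.55 for Gadd45a, -2.09 ± 1.06 for Cdkn1a, -1.37 ± 0.46 for Aen and -1.25 ± 0.40 for Trp53, but none was called, and none was with scan session as a block there. Within run 2 the Perk-null differences of Gadd45a and Aen were -2.44 ± 0.32 and -1.16 ± 0.22, both called, and Cdkn1a (-1.10 ± 0.16) and Phlda3 (0.64 ± 0.15) were called too.

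**Figure D3:**
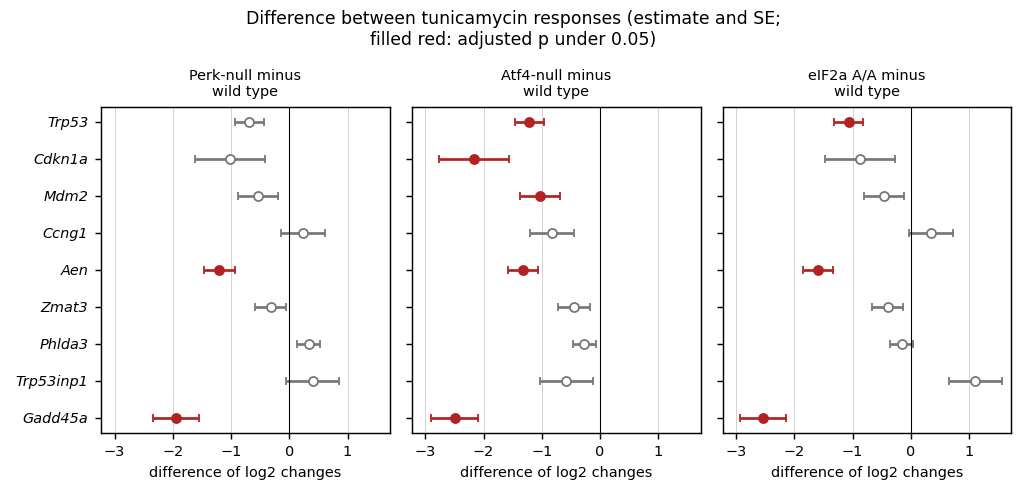
Difference between the tunicamycin response of each mutant and that of wild-type cells, in log2 units with standard errors, for the 9 genes. Filled red points are called at an adjusted p under 0.05, and all of them lie below 0: Gadd45a and Aen in the 3 panels, Trp53 in 2, and Cdkn1a and Mdm2 in the Atf4-null panel.

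Before any treatment, the Perk-null line stood apart in several members. Aen, Ccng1, Gadd45a and Phlda3 were lower and Cdkn1a higher than in wild-type cells, 5 of 9 called against 41.1% of all genes. Aen read 1.54 and 1.23 in Perk-null cells and 4.23 to 5.56 in wild type, and the difference of -2.95 ± 0.20 (adjusted p = 2.88e-08) was called under all 23 alternatives run. Ccng1 read 0.86 and 0.90 against 2.37 to 3.42, a difference of -1.48 ± 0.29 (adjusted p = 0.000779), also called in all. Both genes were thus lowest in this line, with no overlap with any other untreated arrays. Zmat3, at 0.85 and 1.07, was below all other untreated arrays as well, but the difference of -0.50 ± 0.21 was not called (adjusted p = 0.0669).

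Cdkn1a read 3.0 and 2.98 in untreated Perk-null cells, against 1.63 and 1.50 in the wild type of the same run. The difference was 1.39 ± 0.46 (adjusted p = 0.0237) and 1.43 ± 0.12 within run 2. It was lost without either Perk-null array (1.38 and 1.40) or wild-type untreated replicate 3 (1.41) or 4 (1.33). Gadd45a differed by -0.86 ± 0.31 (adjusted p = 0.0352), lost with the replicate block, as numbered or crossed, with no filter on dim probes, and without Perk-null untreated replicate 1 (-0.50) or wild-type treated replicate 3 (-0.82) or 4 (-0.81). Phlda3 differed by -0.49 ± 0.15 (adjusted p = 0.0186), lost with quantile normalization (-0.29) and without Perk-null replicate 2 (-0.42) or wild-type untreated replicate 3 (-0.35) or 4 (-0.44). Trp53, Mdm2 and Trp53inp1 differed by -0.20 ± 0.19, -0.23 ± 0.26 and 0.24 ± 0.35, none of them called.

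Markers of other cell types moved with this line. Krt18, a keratin of simple epithelia, was 76.6-fold higher in untreated Perk-null than in run 2 wild-type cells. Cdh1, the epithelial cadherin, was at least 23.9-fold higher, a bound because it was not well above background in wild type, computed from the lowest signal that counted as well above background. Postn, a matrix protein of fibroblasts, was at least 191-fold lower than in untreated run 2 wild type, but its low level was not particular to this line. Its untreated means were -5.27 in Perk-null and -5.48 in Fv2E-PERK cells, both too dim to measure well. They were 1.91 in Atf4-null and 1.90 in eIF2a A/A cells. Wild type read -2.48 untreated and -6.39 treated in run 1, against 3.30 and 2.20 in run 2. The summed level of 6 epithelial markers was 48.9 to 61.1 on Perk-null arrays and 0.334 to 6.91 on all others. Most of the Perk-null sum was Krt18, whose untreated log2 mean was 5.57. Epcam, like Krt18 and Cdh1, was highest in this line, but Krt19 and Krt8 were not. Untreated Krt19 means were 2.56 in Perk-null and 2.60 in eIF2a A/A cells. Those of Krt8 were -3.82 in Perk-null and -2.54 in Fv2E-PERK cells. The summed level of 16 fibroblast markers was 256 to 341 on Perk-null arrays, against 302 to 1440. Of the epithelial list 5 were called higher and none lower in untreated cells, and of the fibroblast list 13 lower and 1 higher. These are 83.3% and 87.5% of the lists, against 41.1% of all genes. Their part in the untreated differences was not tested.

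In untreated Atf4-null cells 1 of 9 members, Cdkn1a, was called, against 21.1% of all genes. It read 1.50 and 2.06 there and 4.05 and 2.34 in the wild type of the same run, with a difference of -1.37 ± 0.46 (adjusted p = 0.0442). This call rested on many arrays at once: it was lost without either Atf4-null array (-1.10 and -1.65), without wild-type untreated replicate 1 (-0.84), 3 (-1.37) or 4 (-1.39) or treated replicate 1 (-1.30), 3 (-1.39) or 4 (-1.38), within run 1 alone (-1.41 ± 0.75), and with no filter on dim probes. Without Atf4-null untreated replicate 2, Mdm2 (-1.0) and Ccng1 (-0.90) were called, and without replicate 1, Zmat3 was (0.59). Trp53 differed by -0.07 ± 0.19.

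The wild-type arrays of both runs differed from each other in 7 of 9 members, against 46.2% of all genes, a comparison in which the run and the origin of the cells cannot be told apart. Cdkn1a, Trp53inp1, Aen, Ccng1, Mdm2 and Phlda3 were lower in run 2, with differences of -1.55 ± 0.35, -1.09 ± 0.26, -1.0 ± 0.15, -0.87 ± 0.22, -0.59 ± 0.20 and -0.56 ± 0.12, and Gadd45a was higher by 0.77 ± 0.23. The median of the members was -0.59 and that of all genes 0.08. The Mdm2 call was lost without untreated replicate 1 or 3 or treated replicate 1 or 3, at -0.40 to -0.56, and with slide as a random block, and that of Gadd45a without treated replicate 2 (0.62) or 4 (0.66). Trp53 (0.25 ± 0.14) and Zmat3 (-0.14 ± 0.16) were not called.

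Untreated eIF2a A/A and Fv2E-PERK cells were set against each other only, since run 3 holds no wild type, and in this pair slide and line cannot be told apart. Trp53 was lower in eIF2a A/A cells, at -0.81 ± 0.20 (adjusted p = 0.0062), and Aen and Phlda3 higher, by 0.65 ± 0.21 and 0.53 ± 0.16 (adjusted p = 0.0283 and 0.0226), 3 of 9 against 33.6% of all genes. The Trp53 call was lost without Fv2E-PERK replicate 1 (-0.71) or eIF2a A/A replicate 2 (-0.74), and those of Aen and Phlda3 without any 1 of the 4 untreated arrays, with the replicate block, with slide as a random block and with quantile normalization (0.48 and 0.36). That of Phlda3 was lost with normexp background too (0.45). Perp, a p53 target of cell adhesion and death, was among the other targets that differed most here, by 5.52 ± 0.65. Gdf15, a secreted stress hormone, differed by 3.68 ± 0.65, but 1 of the 2 Fv2E-PERK arrays was not well above background for it, and with normexp background the difference was 1.92.

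**Figure D4:**
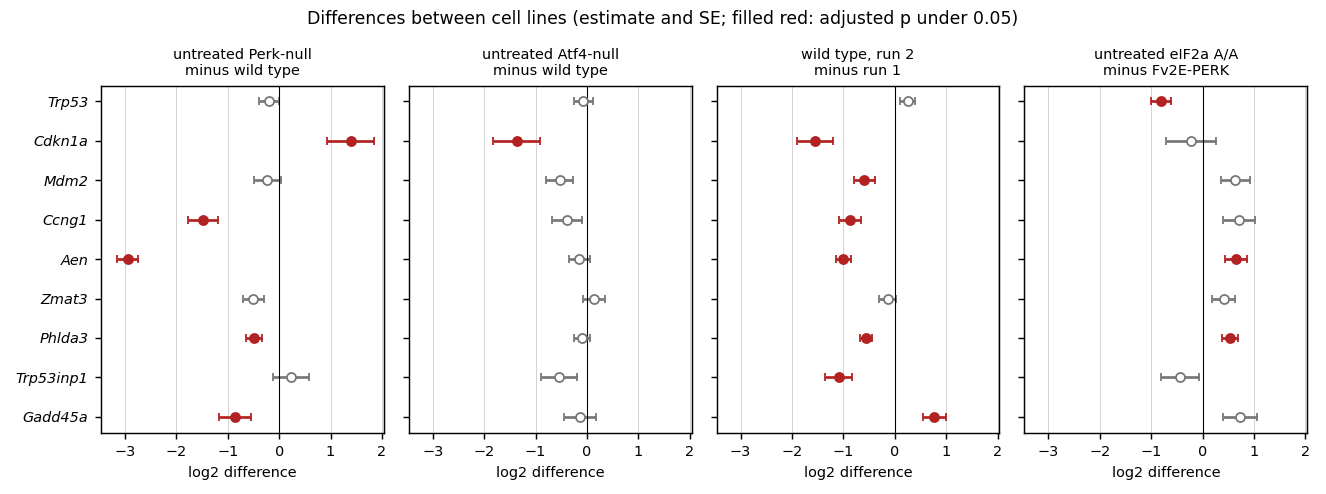
Differences in the level of the 9 genes between untreated lines, and between the wild-type arrays of both scan runs (treated and untreated together), in log2 units with standard errors. Filled red points are called at an adjusted p under 0.05; the largest difference is that of Aen in Perk-null cells, at -2.95.

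The order of the untreated levels differed from gene to gene, as described here without a test across runs. Trp53 was highest in Fv2E-PERK cells, with a mean of 1.94, and a gap of 0.81 to eIF2a A/A with no overlap. From eIF2a A/A (1.13) through wild type of run 2 (0.96), Perk-null (0.75) and wild type of run 1 (0.68) to Atf4-null cells (0.62), the range of each line overlapped that of the next. Cdkn1a ran almost the other way at its ends: it was highest in wild type of run 1 (3.19) and Perk-null cells (2.99), whose ranges overlapped, and lowest in Fv2E-PERK (0.48) and eIF2a A/A cells (0.27). Atf4-null cells (1.78) and wild type of run 2 (1.56) lay between and overlapped. Trp53inp1 was likewise highest in wild type of run 1 (1.99) and lowest in Fv2E-PERK (-0.78) and eIF2a A/A cells (-1.22).

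Mdm2, Aen and Phlda3 varied less among the lines other than Perk-null. Mdm2 means ran from 4.82 in wild type of run 1 to 4.01 in Perk-null cells, and Phlda3 means from 5.19 in Atf4-null to 4.24 in Perk-null cells. Aen means were 5.56 in eIF2a A/A cells and between 4.35 and 5.32 in the other lines except Perk-null (1.38). Gadd45a was low in every untreated line, from 0.51 in wild type of run 2 to -0.37 in Fv2E-PERK cells, and from wild type of run 2 to Atf4-null cells the range of each line overlapped that of the next.

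Cdkn1a was read by a second, dimmer probe, listed under another RefSeq transcript of the gene, and this probe gave a different picture. Its r with the brighter probe was 0.53 over 24 arrays that share lines and runs. It was well above background on 19 arrays and not on 1 untreated and both treated Perk-null arrays and both treated eIF2a A/A arrays. In untreated Perk-null cells it read -4.65, not well above background, and -3.36, below the wild type of that run at -2.90 and -3.08, where the brighter probe was higher. The fitted difference was -1.03 ± 0.47 (adjusted p = 0.0935), of opposite sign to that of the brighter probe, and the mean of both probes gave 0.18, not called. The higher Cdkn1a level of Perk-null cells thus holds for the brighter probe alone.

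For the wild-type arrays of run 2 against run 1 both probes were lower, with -2.56 ± 0.36 on the dimmer and -1.55 ± 0.35 on the brighter probe, both called. Untreated Atf4-null cells were lower on both as well, with -1.68 ± 0.47 on the dimmer probe (adjusted p = 0.0188). With tunicamycin in wild-type cells the dimmer probe changed by -0.22 ± 0.36, and in Atf4-null cells by -1.25 ± 0.50, neither called. The difference between these responses was -1.03 ± 0.62 on the dimmer probe, not called, and -2.17 ± 0.60 on the brighter one. The 2 probes of Aen moved together (r of 1.0), and those of Trp53inp1 less so (r of 0.69). The second Trp53inp1 probe changed by 0.65 ± 0.26 with tunicamycin in wild-type cells (adjusted p = 0.0585), where the brighter one showed -0.02. With AP it changed by -0.95 ± 0.36 (adjusted p = 0.181), where the brighter one showed 0.73, neither of them called. Its untreated Fv2E-PERK arrays lay far apart, at -3.97 and -2.47, and the treated ones read -4.14 and -4.19. The other 6 members had 1 probe each.

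**Figure D5:**
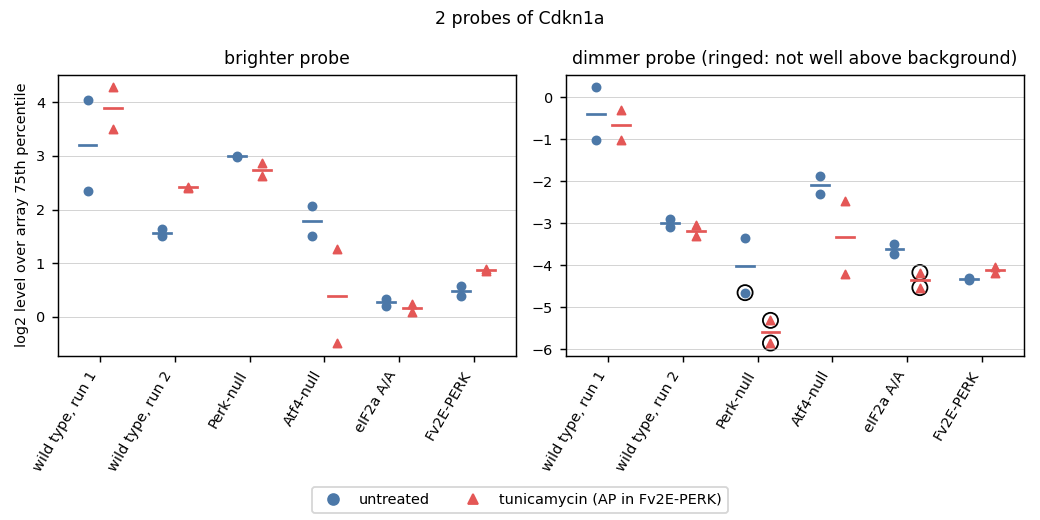
Levels of both Cdkn1a probes on every array, as log2 of the signal relative to the 75th percentile of its array, with a separate vertical scale for each. Ringed points were not well above background; untreated Perk-null cells lie above run 2 wild type on the brighter probe and below it on the dimmer one.

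The wider p53 pathway was described with lists chosen from general knowledge. Of 37 further p53 targets, 14 were higher and 7 lower in wild-type cells with tunicamycin (median 0.28), against a median of 0.07 and 37.5% called over all genes. That is 56.8% called in the list. In the other lines the shares called lay close to those of all genes. In Perk-null cells 1 was higher and none lower, 2.70% against 2.28%. In eIF2a A/A cells 2 were higher and none lower, 5.41% against 4.90%. With AP 1 was higher and 1 lower, 5.41% against 4.08%, and in Atf4-null cells 3 and 9, 32.4% against 29.0%. Without 1 array the Atf4-null counts ran from 2 to 3 higher and 5 to 15 lower. Among the arrest and signalling targets of wild-type cells, Gdf15 rose by 2.66 ± 0.46 and Sesn2, a brake on mTORC1, by 1.52 ± 0.25. The ephrin receptor gene Epha2 rose by 1.40 ± 0.24 and the kinase gene Plk3 by 1.21 ± 0.22, which was 1.86 within run 1 and 0.56 within run 2. Gdf15 rose by 1.60 with normexp background. These also include genes that other stress factors are known to raise.

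Among death genes, Bbc3, which encodes the BH3-only protein PUMA, rose by 0.99 ± 0.13 and Tnfrsf10b, a death receptor, by 0.68 ± 0.12, while the receptor gene Fas fell, with a change of -1.81 ± 0.47. The Fas change was -3.50 within run 1, -0.12 and not called within run 2, and not called with scan session as a random block (-1.09) or with only wild-type arrays fitted. That of Tnfrsf10b was 0.45 within run 2. Tnfrsf10b was the 1 further target called in Perk-null cells, at 0.69 ± 0.16, a call lost without any 1 of the 4 arrays, at 0.69 to 0.70, with either replicate block, with normexp background and with no filter on dim probes. Among repair and metabolism genes, Tigar, a regulator of glycolysis, rose by 1.11 ± 0.21 and Dcxr, a carbonyl reductase gene, fell, at -0.82 ± 0.15. With AP, Gdf15 rose by 4.21 ± 0.65, from a level at which 1 of 2 untreated arrays was not well above background, and by 2.31 with normexp background. Dcxr fell, at -1.0 ± 0.22, a call lost without any 1 of the 4 arrays (-0.87 to -1.13). In eIF2a A/A cells Sesn1 and Tob1, which restrain growth, rose by 0.77 ± 0.17 and 1.02 ± 0.23, and both calls were lost without any 1 of the 4 arrays, at 0.76 to 0.79 and 0.92 to 1.11.

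In Atf4-null cells with tunicamycin Plk2, a polo-like kinase gene, fell, at -3.22 ± 0.64, or -1.83 without untreated replicate 2, which read far above the other. Gtse1, which encodes a p53 inhibitor made in G2, fell too (-2.52 ± 0.32). Xpc and Ddb2, which recognize damaged DNA, rose by 1.24 ± 0.15 and 0.70 ± 0.19, and Ddb2 was not called without untreated replicate 2 (0.46) or treated replicate 1 (0.49). None of these 4 was called within run 1 alone. The difference from wild type was called for Bbc3 (-1.30 ± 0.23), Tigar (-1.26 ± 0.36) and Epha2 (-2.19 ± 0.41), among 14 of the 37 targets lower and 6 higher, 54.1% against 30.5% of all genes. None of the 3 was called within run 1 alone, and that of Tigar was lost without untreated (-0.61) or treated (-1.15) Atf4-null replicate 2 and was -1.91 without untreated replicate 1. Without 1 array the counts ran from 10 to 19 lower and 0 to 6 higher. They were 3 lower and 1 higher for the Perk-null difference, 10.8% against 13.2%, and 7 and 7 for eIF2a A/A, 37.8% against 18.2%.

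Genes of cell division that p21 is known to lower through the DREAM complex made a further list of 18. In wild-type cells 10 were lower and 1 higher with tunicamycin, 61.1% against 37.5% of all genes, with a median of -0.53, and 6 to 10 were lower without 1 array. Cdk1, the mitotic kinase, and Ccnb2, a cyclin, changed by -0.91 ± 0.21 and -0.90 ± 0.18. In Atf4-null cells 16 were lower and none higher, 88.9% against 29.0%, with a median of -1.95, and 15 to 16 were lower without 1 array. Plk1 and Ccna2 changed by -3.10 ± 0.36 and -2.38 ± 0.21. None of the 18 was called by limma in Perk-null, eIF2a A/A or Fv2E-PERK cells, where the medians were -0.22, 0.09 and 0.06. With 2.28%, 4.90% and 4.08% of all genes called there, a count of 0 in 18 genes is near the background. In the same Atf4-null arrays Cdkn1a, the gene of p21, was called lower on its brighter probe. On its dimmer probe the fall was not called (-1.25 ± 0.50). Any link between these changes was not tested.

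Among regulators of p53 and its family, the share called lay below that of all genes in each comparison given here. Of 16 such genes, 3 rose in wild-type cells with tunicamycin, Atr, a DNA damage kinase (0.81 ± 0.11), and the ubiquitin ligase genes Cop1 (0.60 ± 0.11) and Rchy1 (0.51 ± 0.12), and none fell, 18.8% against 37.5% of all genes. The Cop1 change was 0.34 over all its probes and was called within neither run. In Atf4-null cells Ppm1d, a phosphatase that switches p53 off, fell, at -0.72 ± 0.19, the 1 called of 16 (6.25% against 29.0%). It was not called without untreated replicate 2 (-0.60) or treated replicate 1 (-0.58), with scan session as a random block (-0.47) or within run 1. None was called in Perk-null, eIF2a A/A or Fv2E-PERK cells. In untreated Perk-null cells 2 of 16 were higher and 4 lower, 37.5% against 41.1%, and in run 2 against run 1 of wild type 4 were higher and 2 lower, 37.5% against 46.2%. In untreated Perk-null cells Mdm4, a partner of MDM2, was higher by 1.36 ± 0.40, 0.88 with normexp background and not called without either Perk-null array (1.35 and 1.37), and Rchy1 was lower, at -0.74 ± 0.15.

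Over 12 set means (10 groups, with wild type split by run), the members did not follow Trp53. The r of Trp53 with Gadd45a was 0.52, with Mdm2 0.38 and with Cdkn1a 0.00, as a description of sets that share lines and runs. The closest pairs were Aen with Zmat3 (0.93), Ccng1 with Zmat3 (0.86), and Cdkn1a with Trp53inp1 and Ccng1 with Phlda3 (0.83 each). Of 14450 other genes the pattern of Trp53 was most like that of Pcgf5 (0.95), Xrcc6 and Riok2 (0.94 each), Dnph1 and Mtbp (0.93 each). That of Cdkn1a was most like Slco2a1 and Bap1 (0.95 each), Rttn (0.94), Lonrf3 (0.92) and Tram1l1 (0.90).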

How the data were processed

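RNA of 24 samples was measured on 24 one-colour Agilent arrays. The submitters extracted spot signals in Agilent Feature Extraction, version 10.7.1.1, according to the submitters' processing notes. Per the file headers, the processed signal deposited for each spot is an intensity on a linear scale from which background was subtracted and a spatial trend removed. The authors' deposited table holds log2 values of the same arrays. After a shift per array and centring per probe, 99.325% of them lay within 0.001 of log2 of the processed signal. Scale and direction were thereby settled and the baseline of the centring was not. The column medians ran from -0.32 to 0.49, and the table served as an alternative only.

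Control spots were left out, and spots of a probe were averaged. Of 55681 probes 26568 were named by accession through a RefSeq table of GRCm38.p6, used for names only, and 57 named differently in the array design versions were left unnamed. No spot was saturated. The tested value was the log2 processed signal, less its 75th percentile on that array. The single limma fit (3.58.1, R 4.3.3) had 10 group means and a term for run 2, with 13 residual and 2.23 prior degrees of freedom. All p-values are two-sided, from limma, with the Benjamini-Hochberg adjustment over all 14451 genes within each of 12 contrasts. The code was tested on simulated data. Alternatives were the deposited table, normexp background (offset 50), quantile normalization, the mean of all probes, other filters on dim probes, 12 group means, only the arrays compared, slide, scan session or replicate number as a block, single runs, and each array left out.

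The number of arrays limits the precision. The members and lists were chosen with earlier results of these data known. All 9 members are named in every contrast. From each pathway list up to 4 called genes with the largest change per contrast may be named, and the genes most like Trp53 and Cdkn1a are the 5 with the highest Pearson correlation over set means. Markers of 6 cell types were read beside them: fibroblast and epithelial lists are reported with the results. Of the endothelial, haematopoietic, muscle and neural lists, 3, 2, 3 and 6 genes were tested. In untreated Perk-null cells 1, 1, 2 and 0 of these were called higher and 0, 0, 1 and 2 lower. Of all genes 41.1% were called there. In run 1 same-numbered arrays of one treatment shared a scan session, and their deviations from the group means correlated at 0.269 (untreated) and 0.471 (treated), while those of different treatments did so at -0.134 to 0.092. In Perk-null cells the numbers are crossed over the scan sessions (-0.472), and elsewhere the correlations were -0.037 to 0.056. The numbers were therefore not used to pair samples, and blocks by number, by crossed number and by session are alternatives.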

Additional observations from a re-analysis of the deposited data

Results flagged for a closer look

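In 10 cases the response of a mutant differed from that of wild-type cells by limma's test of the difference itself. These were 2 of 9 members in Perk-null, 5 in Atf4-null and 3 in eIF2a A/A cells, against 13.2%, 30.5% and 18.2% of all genes. For Aen the differences were -1.20 (Perk-null), -1.33 (Atf4-null) and -1.59 (eIF2a A/A), and for Gadd45a -1.95, -2.50 and -2.54. For Trp53 they were -1.22 (Atf4-null) and -1.07 (eIF2a A/A), and in Atf4-null cells -2.17 for Cdkn1a and -1.03 for Mdm2. The Cdkn1a value is that of the brighter probe, and on the dimmer probe the difference was not called (adjusted p = 0.222). None of the 5 differences in Atf4-null cells was called within run 1 alone or with scan session as a fixed block there. The 3 mutant differences share the wild-type arrays, and that of eIF2a A/A cells spans scan runs. Among the 4 treated wild-type arrays, the Trp53inp1 level of 1.80 on replicate 1 stood far from the other 3, at 0.82 to 0.93. It was the 1 such array found in 18 groups of 4 examined, and about 1 in 20 is found by chance. Each such group held arrays of both scan runs, which that share leaves out of account. Replicate 1 is of run 1, where Trp53inp1 read 2.06 and 1.92 untreated. The other treated array of run 1, replicate 2, read 0.83.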

How the results depend on the processing

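Of the alternatives run for single members, 1942 kept their side of the threshold, 144 lost a call, 46 gained one and 1 reversed. Of the 1942, 44 changed sign, all of them not called in either setting. The reversal was that of Trp53inp1 in wild-type cells, at 0.63 within run 2 and -0.02 over both runs. Members called, by contrast, were as follows, and the cause of each shift was not tested. For wild type with tunicamycin 5 became 3 with only its own arrays, 3 with the replicate number as a block and 1 within run 1. For Perk-null 1 became 0 with only its own arrays and 0 with crossed replicate numbers. For Atf4-null 4 became 0 with only its own arrays, 2 with quantile normalization and 0 within run 1. For eIF2a A/A 1 became 4 with 12 group means, only its own arrays or scan session as a random block, and 0 without the filter on dim probes, with normexp background or with the replicate block. For AP 1 became 4 with only its own arrays. For the Perk-null difference 2 became 4 within run 2, and for the Atf4-null difference 5 became 3 with only its own arrays and 0 within run 1 or with scan session as a fixed block there. For untreated Atf4-null 1 became 0 without the filter, with only its own arrays, within run 1 and with session as a fixed block there. For eIF2a A/A minus Fv2E-PERK 3 became 8 with only its own arrays, 1 with quantile normalization, slide as a random block or the replicate block, and 0 with session as a random block. For run 2 minus run 1, 7 became 4 with that block. The replicate block changed the count of members past 1.5 times in no other contrast. Session blocks and crossed numbers were chosen after seeing the data.

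Leaving out 1 array at a time gave 3 to 6 members for wild type, 0 to 1 for Perk-null, 0 to 6 for Atf4-null, 0 to 0 for eIF2a A/A, 1 to 1 for AP, 1 to 3, 3 to 7 and 3 to 3 for the Perk-null, Atf4-null and eIF2a A/A differences, 3 to 5 and 0 to 2 for untreated Perk-null and Atf4-null, 6 to 7 for run 2 minus run 1, and 0 to 1 for eIF2a A/A minus Fv2E-PERK. Where an arm was left with 1 array, it was assumed to vary like the other groups.

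Counts over all genes, from which the background shares come, moved as well. Leaving out 1 array took them to 140 to 192 for AP (589), 175 to 235 for eIF2a A/A (708), 103 to 206 for Perk-null (330), 2415 to 5417 for Atf4-null (4195), 977 to 1984, 2572 to 5839 and 1404 to 2774 for the Perk-null, Atf4-null and eIF2a A/A differences (1902, 4403 and 2632), and 3145 to 3183 for eIF2a A/A minus Fv2E-PERK (4857), and by less than 1.5 times elsewhere. With only the arrays compared they went from 4195 to 0 (2560 at an unadjusted p under 0.05) for Atf4-null, 330 to 0 (1969) for Perk-null, 589 to 4153 for AP, 708 to 3276 for eIF2a A/A, 1902 to 1108 and 4403 to 1644 for the Perk-null and Atf4-null differences, 3052 to 1493 for untreated Atf4-null and 4857 to 9149 for eIF2a A/A minus Fv2E-PERK. Within run 1 they were 1299 instead of 5421 (wild type), 253 (Atf4-null), 479 (Atf4-null difference) and 824 (untreated Atf4-null), and within run 2 922 (Perk-null). With session as a random block they were 1056, 1692, 1991, 4850 and 1939 for Perk-null, AP, eIF2a A/A, untreated Atf4-null and eIF2a A/A minus Fv2E-PERK, and 3361 instead of 6683 for run 2 minus run 1. With session as a fixed block they were 607 and 998 for the Atf4-null difference and untreated Atf4-null. Without the filter they were 217 (Perk-null) and 369 (AP), with the replicate block 362 (AP), with normexp 436 (eIF2a A/A) and with 12 group means 1209 (Perk-null difference).

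Quantile normalization moved the share of higher calls from 56.5% to 46.2% for wild type, 35.9% to 50.8% and 44.6% to 56.3% for the Atf4-null and eIF2a A/A differences, and 54.1% to 43.8% for eIF2a A/A minus Fv2E-PERK. It moved the median of all genes from -0.13 to 0.00, -0.06 to 0.07 and 0.05 to -0.06 in the last 3. It reversed no member's call. Dim signal limits the second Cdkn1a probe, and groups of 2 arrays limit all mutant results.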
